A study of Mus musculus with 8 samples.

Results

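The casein genes of the mouse, Csn1s1, Csn2, Csn1s2a, Csn1s2b and Csn3, were followed through 8 single-cell RNA libraries of sorted thymic epithelial cells (TEC). They were chosen by gene symbol, and all 5 of 5 were found among the 27514 genes that both gene lists of the series share. Caseins are the main proteins of milk, made in quantity by the secretory epithelium of the lactating mammary gland. Medullary thymic epithelial cells (mTEC) transcribe many genes that other tissues keep to themselves, so that developing T cells meet the products as self before they leave the thymus. Much of this transcription depends on the nuclear protein Aire, which is known to act in an irregular way, with each cell using a different part of the repertoire. Csn2 is one of the tissue-restricted genes often used to follow Aire activity.

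The libraries came from wild-type C57 B6 (CD45.2) mice of either sex. Adult cTEC and adult mTEC, from mice 4 to 6 weeks old, had 2 libraries each. NB cTEC, from mice 0 to 2 days after birth, E17.5 cTEC, E15.5 cTEC and E13.5 TEC had 1 library each. All cells were sorted as EpCAM+ and CD45-. Cortical cells (cTEC) were Ly51+ UEA-1-, medullary cells Ly51- UEA-1+, and at E13.5 no gate separated the lineages. Newborn and adult thymi were enriched for TEC on Percoll after enzyme digestion, whereas embryonic thymi were trypsinised with no enrichment, so fetal and adult libraries differ in preparation as well as age. Each adult group had replicate 1 in data set 1 and replicate 2 in data set 2. The labels do not say how many animals each library pooled or that the replicates came from separate mice, so p-values measure the spread between these libraries.

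After limits of 5000 genes and 5% mitochondrial unique molecular identifiers (UMIs) per cell, 25750 of 28334 cells were kept, between 507 and 8350 per library. Adult cTEC libraries held 2238190 and 4040026 UMIs, and adult mTEC libraries 16638125 and 67324065. The fetal and newborn libraries held between 15061603 and 89998087 UMIs. Library pairs had between 0 and 61 cell barcodes in common. The gates were checked against their markers. Psmb11, the cortical thymoproteasome subunit, was found in 94.5% to 99.2% of the E15.5, E17.5 and NB cTEC without a casein UMI but in only 44.9% and 67.9% of such adult cTEC, and Aire stood at 434.5 and 398.8 UMIs per 1000000 UMIs of the library (CPM) in adult mTEC against 8.94 and 2.72 CPM in adult cTEC.

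The 5 genes lie in 1 cluster on chromosome 5 (GRCm38), from base 87666208 to base 87932665, a span of 266.0 kb. Csn1s1 (ENSMUSG00000070702), an alpha-casein gene, occupies 87666208 to 87682578 on the plus strand. Csn2 (ENSMUSG00000063157), which encodes beta-casein, lies 10.0 kb further on the minus strand, from 87692624 to 87699630. Csn1s2a (ENSMUSG00000061937, 87774567 to 87788797) and Csn1s2b (ENSMUSG00000061388, 87808082 to 87824426) encode further alpha-type caseins on the plus strand. Csn3 (ENSMUSG00000001622, 87925579 to 87932665, plus strand) encodes kappa-casein, the member that caps the casein micelle in milk. Csn3 lies within the span of a minus-strand lncRNA gene, 1700066N21Rik, which itself held 1 and 2 UMIs in adult mTEC. Sequence shared with other genes was scarce: of the 25-base words in each gene's transcripts, between 0% and 2.83% occurred in any other gene, and at most 2 words of a member occurred in another member. The RefSeq promoter set (GRCm38.p6) held 3 of the 5 genes. Their windows, 250 bases before to 50 after the RefSeq start, which for Csn2 and Csn1s2a lies apart from the outermost GENCODE start given above, are given because Stat5, the transcription factor that prolactin activates in the mammary gland, is known to bind the letters TTCNNNGAA in casein promoters. The motif reads the same on both strands, and its matches are in capitals.
Csn1s1, chr5:87665958-87666257, plus strand: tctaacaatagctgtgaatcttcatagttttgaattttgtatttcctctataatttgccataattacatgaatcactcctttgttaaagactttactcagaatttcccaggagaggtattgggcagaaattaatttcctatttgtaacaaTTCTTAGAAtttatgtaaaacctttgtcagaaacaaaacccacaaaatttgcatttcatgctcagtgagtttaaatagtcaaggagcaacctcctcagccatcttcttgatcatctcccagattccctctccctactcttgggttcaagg
Csn2, chr5:87699376-87699675, minus strand: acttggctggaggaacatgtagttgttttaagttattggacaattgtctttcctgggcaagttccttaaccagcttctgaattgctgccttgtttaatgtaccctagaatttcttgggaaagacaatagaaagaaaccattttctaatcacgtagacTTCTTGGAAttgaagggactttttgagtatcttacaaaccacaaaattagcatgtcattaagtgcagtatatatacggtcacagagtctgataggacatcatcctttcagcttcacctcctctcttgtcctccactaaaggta
Csn1s2a, chr5:87774200-87774499, plus strand: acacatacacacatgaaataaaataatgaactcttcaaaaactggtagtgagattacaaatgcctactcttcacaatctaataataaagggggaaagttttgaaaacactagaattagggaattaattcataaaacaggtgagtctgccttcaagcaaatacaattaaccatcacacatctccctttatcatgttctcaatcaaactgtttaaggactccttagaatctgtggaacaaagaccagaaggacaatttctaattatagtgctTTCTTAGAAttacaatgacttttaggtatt
Each of the 3 windows held 1 match, beginning 100 bases before the start in Csn1s1, 93 bases before it in Csn2 and 20 bases after it in Csn1s2a. Of 32851 mouse promoter windows of this length, 2726 (8.3%) held the motif. Csn1s2b and Csn3 were not matched in the promoter set.

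Casein transcripts were found almost entirely in the adult mTEC libraries, and nearly all of them were Csn2. Csn2 held 905.8 CPM in adult mTEC replicate 1 and 894.6 CPM in replicate 2 (mean 900.0 ± 7.92 SD, n = 2), so that its 2 libraries differed by a factor of 0.988. Csn1s2a followed at 34.6 and 41.7 CPM. Csn3 held 11.1 and 11.0 CPM, Csn1s1 5.05 and 6.39 CPM, and Csn1s2b 2.71 and 6.37 CPM. A UMI tags 1 captured transcript, so these levels were compared as transcripts with no division by gene length. The order Csn2, Csn1s2a, Csn3, Csn1s1 was the same in both libraries, and exact Poisson 95% intervals of these neighbours did not overlap within a library. Csn1s1 and Csn1s2b did not differ in replicate 2, where their intervals were 5.80 to 7.02 and 5.78 to 7.01 CPM. Csn1s2b was the member that varied most between the libraries, 2.36 times higher in replicate 2. Csn2 made up 94.4% and 93.2% of the 15961 and 64634 casein UMIs, and the 5 genes together stood at 959.3 and 960.0 CPM. These intervals, like all others given here, cover counting error only.

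In the adult cortex gate, Csn2 held 54 UMIs in 10 of 507 cells (24.1 CPM) in replicate 1 and 32 UMIs in 9 of 535 cells (7.92 CPM) in replicate 2. The other 4 genes had 0 UMIs in both, which allows up to 1.34 and 0.743 CPM (3 UMIs per library). Before adulthood, only traces were seen. Csn3 had 3 UMIs in E13.5 TEC (0.199 CPM), Csn2 had 13 UMIs in E17.5 cTEC (0.144 CPM) and 3 UMIs in NB cTEC (0.122 CPM), and every other casein count in the 4 fetal and newborn libraries was 0. With 1 library per age and no medullary library before adulthood, no test was made between ages.

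**Figure D1:**
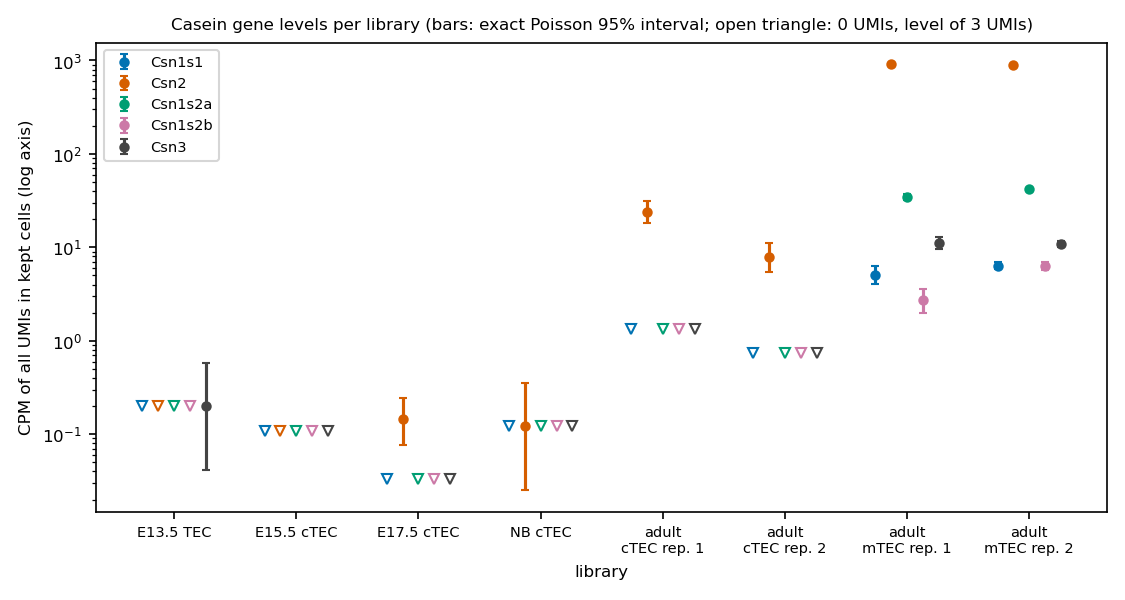
CPM of each casein gene (log axis) in the 8 libraries, as points with exact Poisson 95% intervals, and open triangles at the level of 3 UMIs where a gene had 0 UMIs. Csn2 stands near 900 CPM in both adult mTEC libraries, the other 4 genes lie between 2.71 and 41.7 CPM there, and Csn2 is the only member above 0 in adult cTEC.

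Adult mTEC and adult cTEC were compared with edgeR's quasi-likelihood test on UMIs summed per library, with a term for the data set. Csn2 was 6.08 ± 0.51 (SE) higher in adult mTEC on the log2 scale (edgeR, adjusted p = 5.03e-14). Within data set 1 it was 37.5-fold higher and within data set 2 113.0-fold higher. The edgeR adjusted p was 1.15e-12 for Csn1s2a, 9.44e-08 for Csn3, 3.6e-05 for Csn1s1 and 0.000186 for Csn1s2b. For these genes, at 0 in adult cTEC, only lower bounds of the fold can be given. Csn1s2a was at least 25.8-fold and at least 56.2-fold higher in the 2 data sets. The bounds were 8.3-fold and 14.8-fold for Csn3, 3.77-fold and 8.6-fold for Csn1s1, and 2.02-fold and 8.58-fold for Csn1s2b. All 5 members were called, beside 32.7% of the 15650 genes tested in either direction and 21.3% higher in adult mTEC, with a median log2 difference of 0.14 over all genes tested. The 4 members at 0 in adult cTEC passed the filter on low counts through the mTEC libraries alone. DESeq2's Wald test did not call Csn1s2a (adjusted p = 0.0875), and Csn1s2b was lost when adult cTEC replicate 1, adult cTEC replicate 2 or adult mTEC replicate 2 was left out (edgeR, adjusted p = 0.0708, 0.0922 and 0.163). The gates also differed in markers of other cells. The 5 erythroid markers summed to 84.3 and 108 CPM in adult mTEC, with none at 0, and to 1.34 and 2.23 CPM in adult cTEC, with 2 and 1 at 0. The 4 B cell markers summed to 24.5 and 36.6 CPM, with none at 0, against 1.79 and 2.23 CPM, with 2 at 0 in each. The 6 myeloid markers summed to 436 and 557 CPM against 238 and 32.2 CPM, and the 10 thymocyte markers to 43.3 and 34.3 CPM against 134 and 103 CPM, with none at 0. Without cells that had 3 or more thymocyte UMIs, Csn2 was 5.94 higher in adult mTEC on the log2 scale. The part of the erythroid, B cell and myeloid markers in the casein difference was not tested.

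The few casein cells of the adult cTEC gate carried the medullary regulator more often than their neighbours. Of the 10 such cells of replicate 1, 5 had an Aire UMI, against 0.604% of the other cells, and of the 9 in replicate 2, 3 had one, against 0.19%. Psmb11 was found in 3 of the 10 and 2 of the 9, compared with 44.9% and 67.9% of the other cells. None of these cells shared a barcode with the adult mTEC library of its data set. The summed level of the 6 markers fixed for Ccl21a-type mTEC was 6260 CPM in adult cTEC replicate 1 and 1440 CPM in replicate 2, with none at 0, and that of the 7 markers fixed for Aire-type mTEC was 3530 and 3370 CPM, with none at 0. The Aire-type list also summed to 2390 CPM in E17.5 cTEC and 3950 CPM in NB cTEC, where Csn2 held 0.144 and 0.122 CPM. The part of these markers in the Csn2 level of this gate was not tested.

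Csn2 was widespread among adult mTEC, whereas each of the other caseins was found in few cells. With every cell thinned to 3000 UMIs, which left out 9 and 212 shallower cells of the 2 adult mTEC libraries and 155 and 26 cells of the adult cTEC libraries, 624 of 1577 cells (39.6%, exact binomial 95% interval 37.1 to 42.0%) and 3271 of 5403 cells (60.5%, 59.2 to 61.9%) had a Csn2 UMI. At the deposited depth the shares were 51.3% and 84.1%. In adult cTEC they were 2.56% and 0.982% after thinning. Csn1s2a was found in 1.71% and 4.26% of thinned adult mTEC, Csn3 in 1.46% and 1.81%, Csn1s1 in 0.698% and 1.28%, and Csn1s2b in 0.571% and 1.3%. Any casein was found in 39.8% and 61.8% of cells (mean 50.8% ± 15.6 SD, n = 2), and any but Csn2 in 3.81% and 7.94%. At the deposited depth, any casein but Csn2 was found in 6.62% and 19.04% of adult mTEC, and Csn1s2a in 3.22% and 11.49%.

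Part of the single UMIs in replicate 2 could not be told from free RNA in the droplets. In the cluster there that carried the Ccl21a-type markers (median 7703 UMIs), 32.8% of thinned cells had a Csn2 UMI and 20.6% an Aire UMI, and in the tuft-type cluster (median 7382 UMIs) the shares were 34.0% and 23.1%. In the Ccl21a-type cluster of replicate 1 (median 6869 UMIs), 6.58% of cells had a Csn2 UMI and 1.32% an Aire UMI. Ccl21a itself was found in 74.0% of cells of the cycling cluster and 80.3% of the tuft-type cluster of replicate 2. Cells with many casein UMIs were therefore also counted. Cells with 10 or more Csn2 UMIs, a limit chosen after the data were seen, were 397 of 1586 in replicate 1 and 1694 of 5615 (30.2%) in replicate 2. In the Ccl21a-type clusters, 0% and 0.145% of cells reached 10.

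Within positive cells, Csn2 had a higher median than each of the other 4 caseins, which came as few UMIs in most positive cells. Most of them also had a small number of much richer cells. In replicate 1, however, no cell held 10 or more Csn1s2b UMIs. Cells with a single UMI were 27.3% to 68.0% of the positive cells of these 4 genes in replicate 1 and 64.5% to 75.2% in replicate 2. A Csn2-positive cell held a median of 9 UMIs in replicate 1 and 5 in replicate 2, and the richest cells held 321 of 14584 and 215 of 11261 UMIs. At least 100 Csn2 UMIs were found in 19 and 40 cells. The median was 2 and 1 for Csn1s2a, 2 and 1 for Csn3, 3 and 1 for Csn1s1, and 1 and 1 for Csn1s2b. Nevertheless the richest cell held 84 and 222 UMIs of Csn1s2a, 58 and 62 of Csn3, 14 and 25 of Csn1s1, and 7 and 29 of Csn1s2b. For Csn1s2a, 5 of its 51 positive cells and 22 of its 645 supplied 50% of the UMIs, and for Csn2 100 of 813 and 541 of 4720. The variance of Csn1s2a over its mean was 43.9 and 51.9, and that of Csn2 was 48.3 and 31.4.

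**Figure D2:**
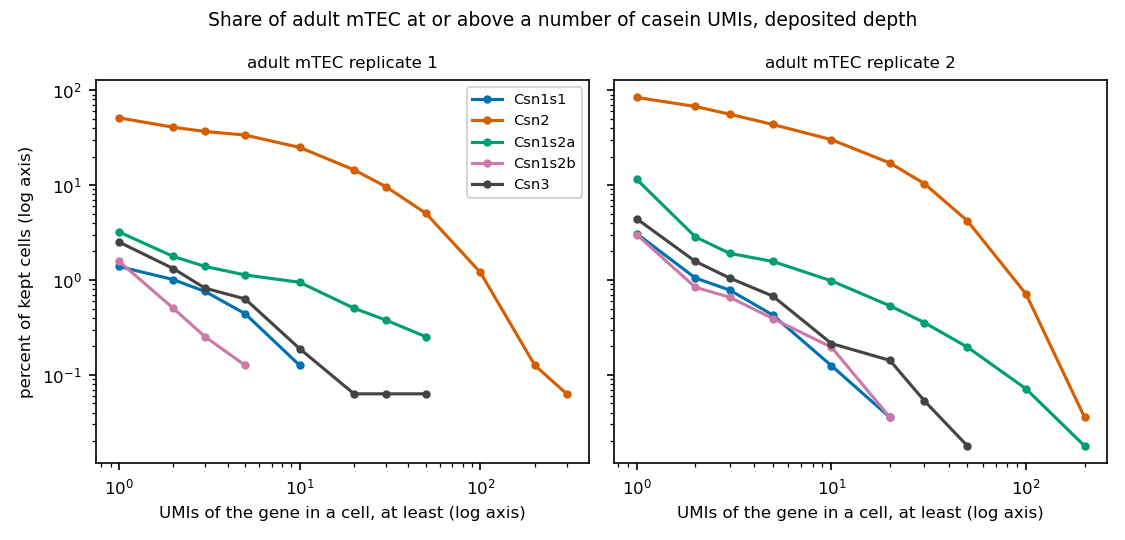
Share of kept adult mTEC (log axis) with at least a given number of UMIs of each casein gene (log axis), at the deposited depth, for replicate 1 (left) and replicate 2 (right). The Csn2 curve lies above the others at every number drawn, up to 300 UMIs in replicate 1 and 200 in replicate 2. At 200 in replicate 2 it stands at 0.0356% of cells and Csn1s2a at 0.0178%.

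The richest cells of each casein were looked up. Each was chosen for its count of 1 casein, so a lean towards that casein was built into the choice. In replicate 2 the cell with 222 Csn1s2a UMIs also held 117 Csn2 and 6 Csn1s1 UMIs, and none of Csn1s2b or Csn3. The cell with 62 Csn3 UMIs was the one with 215 Csn2 UMIs, and it held 1 UMI of Csn1s2a and none of Csn1s1 or Csn1s2b. The cell with 29 Csn1s2b UMIs held 8 of Csn2 and none of the other 3. By contrast, the cell with 25 Csn1s1 UMIs held 54 of Csn2, 10 of Csn1s2a and 3 of Csn1s2b. In replicate 1, the cell with 14 Csn1s1 UMIs held 7 Csn2 and 4 Csn3 UMIs. At the deposited depth, all 5 genes were found in 0 of 1586 cells of replicate 1 and 1 of 5615 cells of replicate 2.

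Most cells with a minor casein had Csn2 as well. Among thinned cells of replicate 1, Csn2 was found in 100% of the 11 Csn1s1 cells, 92.6% of the 27 Csn1s2a cells, 100% of the 9 Csn1s2b cells and 95.7% of the 23 Csn3 cells, against 38.6% to 39.2% of the cells without each gene. In replicate 2 the shares were 84.1% of 69, 81.7% of 230, 88.6% of 70 and 89.8% of 98 cells, against 59.6% to 60.2%. With 5 or more UMIs required of each gene at the deposited depth, 18 of 18 Csn1s2a cells in replicate 1 and 86 of 88 in replicate 2 also had 5 or more Csn2 UMIs, as did 10 of 10 and 37 of 38 Csn3 cells, 7 of 7 and 23 of 24 Csn1s1 cells, and 2 of 2 and 19 of 22 Csn1s2b cells. Such Csn2 cells were 33.7% and 43.6% of all cells. The converse did not hold, since 570 and 2978 thinned cells had 1 casein only, while 57 of 1577 and 362 of 5403 had more. All genes in at least 1% of cells were also ranked as partners of each minor casein. The rank used cells with both genes over cells expected from independent detection, in the lower library. Among 10964 or 10965 genes, Csn2 ranked 779 for Csn1s1, 661 for Csn1s2a, 577 for Csn1s2b and 629 for Csn3.

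Summed over the 10 pairs of caseins, cells with both genes of a pair were 2.67 times (95% interval 2.11 to 3.34) as many as independent detection gives in replicate 1 and 1.48 times (1.34 to 1.62) in replicate 2, a mean of 2.07 ± 0.85 (SD, n = 2). Over the 6 pairs without Csn2 the ratio was 9.17 (4.4 to 16.9, from 10 pairings of cells) and 3.04 (2.18 to 4.12, from 41). At 5 or more UMIs of each gene, a definition chosen after the data were seen, that ratio was 10.7 and 10.5. Within thinned cells that had an Aire UMI, the ratio at 1 or more UMIs was 4.37 and 2.73, lower than over all thinned cells. The part of Aire in the ratio was not tested. Without the fifth of cells that had the most UMIs, the ratio was 9.05 and 2.81. The part of doublets in it was not tested. The ratio describes cells of 1 library that share its depth and free RNA, and no test was made on cells.

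Among single pairs, Csn1s1 with Csn1s2a, 91.9 kb apart, were found together in 4 cells against 0.188 expected in replicate 1 and in 14 against 2.94 in replicate 2, ratios of 21.2 and 4.77. Csn1s2a and its adjoining gene Csn1s2b (19.3 kb) were found together in 1 cell against 0.154 and in 12 against 2.98. Csn1s2a with Csn3 gave ratios of 5.08 and 2.4. Csn1s1 with Csn3, the outermost pair with 243.0 kb between them, did not behave alike in the 2 libraries, with 2 cells against 0.16 expected in replicate 1 and 0 against 1.25 in replicate 2. For comparison, over the 10964 or 10965 genes detected in at least 1% of cells of both libraries, the median ratio with Csn1s1 was 0.44 and 0.955 and the 99th percentile 8.43 and 3.26, and for Csn1s2a the median was 0.899 and 0.958 and the 99th percentile 6.15 and 2.21.

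The window from 10 genes before Csn1s1 to 10 genes after Csn3 in the RefSeq gene table held 32 genes, of which 21 were in the matrices, 16 of them not members. Of these 16, 14 (87.5%) had a UMI in both adult mTEC libraries, some with only 1 and 2 UMIs, as did 76.2% of all 27514 genes. BC037156, a protein-coding gene 11.4 kb before Csn3, held 32.7 and 42.8 CPM in adult mTEC, as much as Csn1s2a, and 0 UMIs in adult cTEC. Sult1d1 (4.99 and 4.78 CPM) and Sult1e1 (4.93 and 5.09 CPM) are sulfotransferase genes before Csn1s1. Odam (4.27 and 3.65 CPM) is an enamel-associated gene between Csn1s2b and Csn3, and Smr3a (2.82 and 5.56 CPM) a submaxillary gland gene beyond Csn3. Sult1d1, Sult1e1, Odam and Smr3a were at levels similar to Csn1s1 and Csn1s2b, and below Csn3 and Csn1s2a. These 5 neighbours were the ones that passed the filter on low counts, and edgeR called them higher in adult mTEC with adjusted p between 1.22e-12 and 0.00216, beside 21.3% of all genes called in that direction. Sult1d1 had 2 and 0 UMIs in adult cTEC and the others none, so all 5 passed the filter through the mTEC libraries alone and had to differ. Ugt2a1 and Ugt2a2, further out, had 0 UMIs in all 4 adult libraries.

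Co-detection with neighbours reached the size seen between caseins. Csn3 was found with BC037156 in 4 thinned cells against 0.335 expected in replicate 1 and in 25 against 4.06 in replicate 2, ratios of 11.9 and 6.15, while the 99th percentile over all genes for Csn3 was 6.23 and 2.81. At 5 or more UMIs of each, 12 cells of replicate 2 held both against 0.711 expected, and 1 cell of replicate 1 against 0.113. Csn3 with Odam gave 4 against 0.175 and 4 against 0.671. Csn1s1 with Sult1e1, 74.6 kb apart, gave 1 against 0.0767 and 6 against 0.575. Csn3 with Smr3a, 59.0 kb apart, gave 0 against 0.117 and 1 against 0.798, and Csn3 with Sult1d1, 357.0 kb apart, gave 1 against 0.277 and 1 against 1.34.

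**Figure D3:**
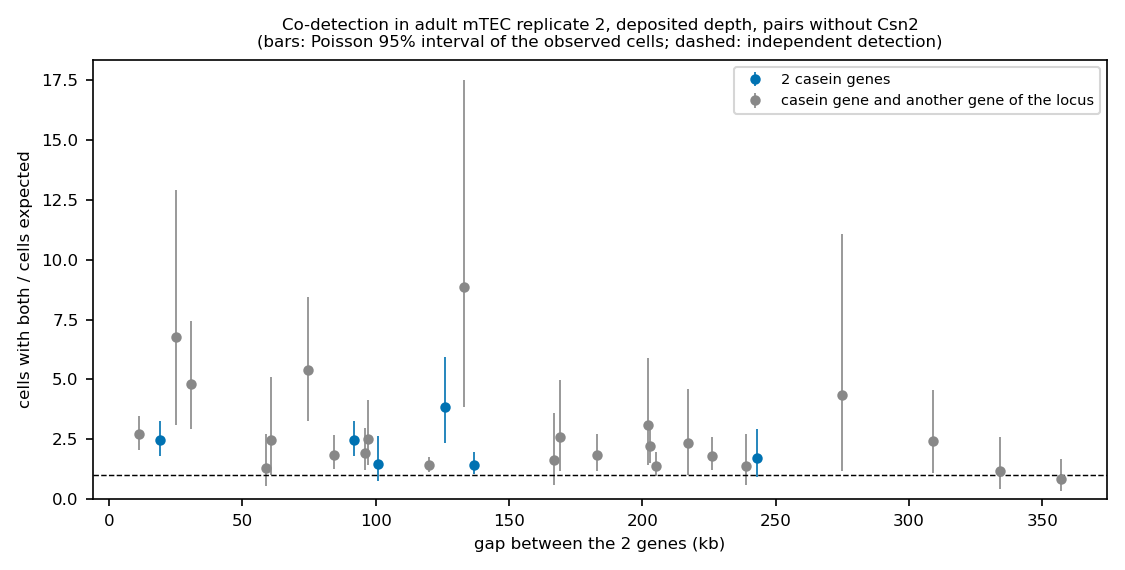
Ratio of observed to expected cells with both genes against the gap between the genes in kb, in adult mTEC replicate 2 at the deposited depth, for pairs of casein genes (blue) and pairs of a casein gene with another gene of the locus (grey), without Csn2 and with Poisson 95% intervals. The ratio was 2.7 for Csn3 and BC037156 (11.4 kb, 62 cells), 5.41 for Csn1s1 and Sult1e1 (74.6 kb, 19 cells) and 0.821 for Csn3 and Sult1d1 (357.0 kb, 7 cells), and thinned ratios of the same pairs differ from these.

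Csn2 was more frequent in cells with more Aire UMIs in both libraries. Among thinned cells of replicate 1 with 0, 1 to 2, 3 to 5 and 6 or more Aire UMIs, 19.2%, 63.5%, 77.2% and 93.4% had a Csn2 UMI. In replicate 2 the shares were 49.8%, 67.2%, 80.3% and 89.8%. The gap between the libraries was widest in cells with 0 Aire UMIs, and the part of free RNA in it was not tested. For any minor casein the shares were 1.45%, 5.78%, 8.93% and 11.5% in replicate 1, and 6.13%, 8.95%, 10.9% and 17.3% in replicate 2. With 10 or more Csn2 UMIs required at the deposited depth, the shares came to 3.12%, 22.3%, 36.3% and 57.6% in replicate 1 and 7.28%, 16.9%, 345 of 863 cells and 55.6% in replicate 2. At the deposited depth, the cells of these bins had a median of 7258 UMIs at 0 Aire UMIs and 13295 at 6 or more in replicate 1, and of 7213.5 and 15804.5 in replicate 2, and the part of depth in the unthinned shares was not tested.

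**Figure D4:**
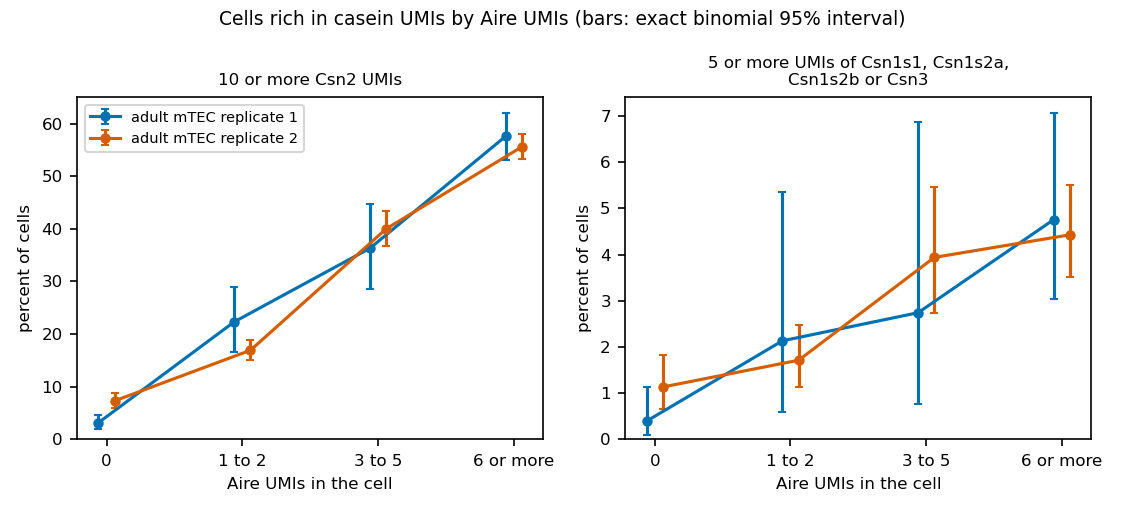
Percent of adult mTEC with 10 or more Csn2 UMIs (left) and with 5 or more UMIs of a minor casein (right) by Aire UMIs in the cell, at the deposited depth, with exact binomial 95% intervals, for replicate 1 (blue) and replicate 2 (orange). The left panel climbs from 3.12% and 7.28% at 0 Aire UMIs to 57.6% and 55.6% at 6 or more, and the right panel from 0.39% and 1.13% to 4.76% and 4.43%.

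The share of cells with any casein UMI was 3.66 times as high among Aire-positive as among Aire-negative cells in replicate 1 and 1.41 times in replicate 2. With 10 or more casein UMIs, a definition chosen after the data were seen, the ratios were 14.2 and 5.05. Spearman's rho between Csn2 and Aire UMIs was 0.554 over 1577 thinned cells and 0.318 over 5403, and for Csn1s2a it was 0.0972 and 0.0466. These correlations are across cells that share a library. Some casein-rich cells had no Aire UMI. In replicate 1 a cell with 218 Csn2 UMIs of 5004 had 0 Aire UMIs, and in replicate 2 a cell with 43 Csn3 UMIs of 6817 had 0. Of the thinned Csn2 cells of replicate 1, 70.4% had an Aire UMI, against 38.9% of all cells, and in replicate 2 58.8% had one, against 49.9%.

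Across cells, genes were ranked by their likeness to the summed caseins. By the lower of the 2 libraries' Pearson r over thinned log counts, among 10962 genes detected in at least 1% of cells, the nearest were Ubd (r = 0.532 and 0.464), a ubiquitin-like modifier, Srgn (0.574 and 0.438), the proteoglycan serglycin, and the MHC class II genes H2-Aa (0.488 and 0.426) and Cd74 (0.507 and 0.409). Cd52, Ctsh, Cyba and Tkt completed the first 8, with r in replicate 2 between 0.364 and 0.386. Aire ranked 16 (0.514 and 0.313), Cd80 147, Cd40 217 and Fezf2, a second regulator of tissue-restricted genes, 778. Tnfrsf11a, the receptor RANK, ranked 1492. At the other end stood Ccl21a, the chemokine of immature mTEC, at 10959 (−0.523 and −0.326), and the basal keratin gene Krt5 at 10957 (−0.514 and −0.34). Krt10, Mki67 and Top2a lay near 0, with r between −0.084 and −0.02.

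Cells were also split by a UMI of single genes. Thinned cells of replicate 1 with a Krt5 UMI had Csn2 in 11.4%, those without in 67.9%, and in replicate 2 the shares were 45.7% and 70.9%. For Ccl21a they were 29.0% and 65.6% in replicate 1 and 59.4% and 67.0% in replicate 2, where most cells had a Ccl21a UMI. Cd80, a costimulatory ligand, marked cells with Csn2 in 68.4% and 77.9%, against 37.3% and 58.4% of cells without it. Ivl, the cornified envelope gene involucrin, was found in only 12 and 33 cells, 75.0% and 72.7% of which had Csn2. Cells with a UMI of Trpm5, a tuft cell channel, had Csn2 in 41.7% of 12 and 45.1% of 122, and those with Avil in 3 of 15 and in 47.6% of 206.

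Csn1s2a and Csn3 were ranked separately. The genes most like Csn1s2a were Csn2 (r = 0.21 and 0.195), Amtn (0.137 and 0.176) and the pancreatic elastase gene Cela3b (0.184 and 0.119). Amtn, an enamel protein gene, lies on chromosome 5 at 88376108 to 88385916, 443.0 kb beyond Csn3. For Csn3 they were its neighbour BC037156 (0.261 and 0.182), Csn2 (0.217 and 0.157) and the chemokine gene Ccl6 (0.133 and 0.176). All of these are weak correlations in sparse counts and are given as a ranking only.

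Clusters of adult mTEC, made in each library without the 5 genes, carried the caseins very unevenly. In replicate 1, a cluster of 341 cells led by Fabp6 and S100a8 held 2780 CPM of Csn2, 139 CPM of Csn1s2a, 42.6 CPM of Csn3 and 10.6 CPM of Csn1s2b, with 58 of the 84 Csn1s1 UMIs of the library, and 79.5% of its cells had 10 or more Csn2 UMIs. It supplied 10757 of the 15071 Csn2 UMIs and 540 of the 576 Csn1s2a UMIs of the library. Another Aire-rich cluster, led by Rhox12 and Thrsp (234 cells), had 790 CPM of Aire, close to the 923 CPM of the first, yet 805 CPM of Csn2 and 6.85 CPM of Csn1s2a. In the first of these clusters 4 of 7 Aire-type, 4 of 6 myeloid and 5 of 5 erythroid markers were over 2-fold higher than in the rest. The naming rule made it mTEC II-like (Aire-type), though none of the Aire-type markers was among its 10 leading genes. Those held the myeloid genes S100a8 and S100a9, which are not on the fixed myeloid list. The part of the myeloid and erythroid markers in its casein level was not tested. In the mTEC I-like cluster, led by Ccl11 and the interferon-induced gene Ifit3, Csn2 stood at 19.1 CPM, and in the cycling-like cluster, with 341 CPM of Aire, at 170 CPM.

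Replicate 2 showed a like arrangement. A cluster of 923 cells led by Mt4 and 1810065E05Rik held 2340 CPM of Csn2 and 173 CPM of Csn1s2a beside 532 CPM of Aire. The haemoglobin genes of the erythroid marker list were over 2-fold higher in it, but none was among its leading genes and it was left unnamed. The Aire-richest cluster, led by Thrsp and Klk4 (811 cells, 779 CPM of Aire), had 1200 CPM of Csn2 and 30.7 CPM of Csn1s2a. The cycling-like cluster, with 421 CPM of Aire, had 243 CPM of Csn2, less than each of 4 small unnamed clusters with Aire between 106 and 148 CPM. Csn2 stood in these at 413 CPM (led by Car8), 547 CPM (led by Guca2b), 586 CPM (led by Dynlrb2) and 2820 CPM (led by Ccl6).

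The cluster led by Ccl6, Ccl20 and Gp2 (93 cells) held more Csn3 than Csn1s2a beside its main casein, Csn2. It had 148 CPM of Aire, 2820 CPM of Csn2 and 212 CPM of Csn3, with 162 Csn3 UMIs in 17 cells, whereas its Csn1s2a, 15.7 CPM, came from 12 cells with at most 1 UMI each. Without the 1 cell that held 62 Csn3 UMIs, its Csn3 level was 133 CPM. In the cluster led by Mt4, by contrast, Csn1s2a stood at 173 CPM (154 CPM without its richest cell) and Csn3 at 16.0 CPM. In replicate 1 no separate cluster was led by Ccl6, but Ccl9 and Cyp2a5, which are among the leading genes of this cluster, were also among those of the mTEC III-like cluster, where Csn3 stood at 9.24 CPM. The Csn3 level is thus given for 1 library. In the mTEC I-like cluster of replicate 2, Csn1s2a was spread as at most 2 UMIs over 37 of 690 cells. The mTEC III-like clusters, named from keratinisation markers, held 1400 CPM of Csn2 with 25.7% of cells at 10 or more UMIs in replicate 1, and 268 CPM and 4.22% in replicate 2. They differed in make-up, since Ccl9, Cyp2a5, Reg3g, Wfdc2 and Bpifa1 were among the 10 leading genes of the first and none of these was among those of the second.

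**Figure D5:**
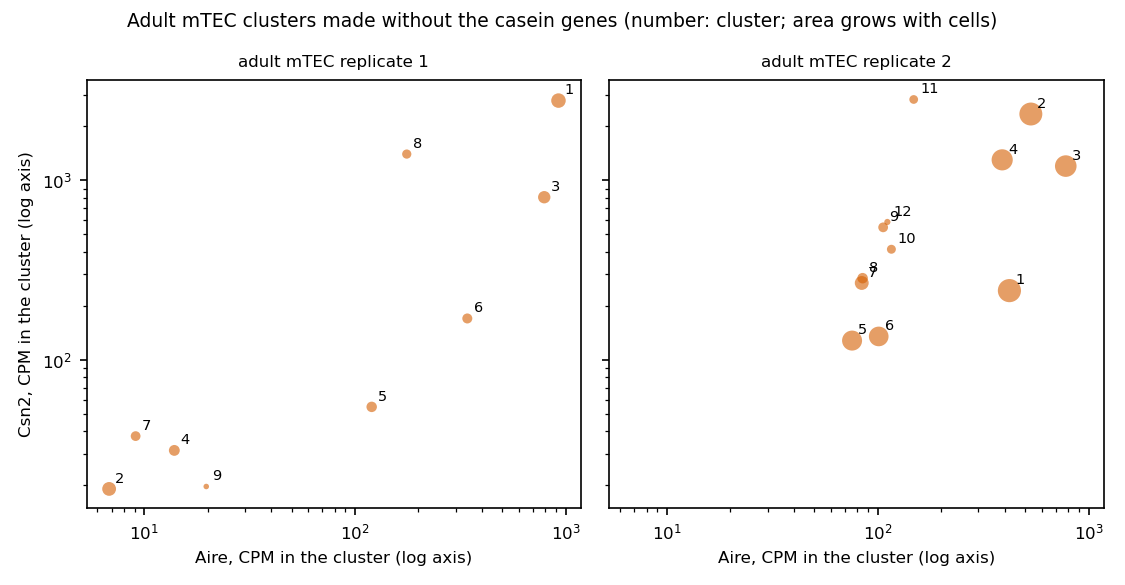
Csn2 against Aire in CPM (both axes log) in each cluster of adult mTEC replicate 1 (left) and replicate 2 (right), with the cluster number beside each point and an area that grows with the number of cells. Csn2 is highest at 2780 CPM in cluster 1 of replicate 1 and at 2820 CPM in cluster 11 of replicate 2, the latter with only 148 CPM of Aire, and the cycling-like clusters (6 and 1) lie low for their Aire.

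Other genes of milk did not follow 1 direction. Of 24 genes listed for milk proteins, milk fat and lactation, all were in the matrices and 21 were tested, with 11 higher and 4 lower in adult mTEC (edgeR), beside 21.3% of all genes called higher and 32.7% in either direction, and a median log2 difference of 2.87, against 0.14 over all genes tested. Wap, the whey acidic protein gene, stood at 0 in both adult cTEC libraries and at 11.6 and 12.7 CPM in adult mTEC (edgeR, adjusted p = 3.49e-08), a level like that of Csn3. Cel, the bile salt-activated lipase of milk and pancreas, rose from 0 to 5.95 and 5.04 CPM, and Lao1, a milk amino acid oxidase, from 0 to 1.98 and 1.59 CPM. Spp1, which encodes osteopontin, rose from 0 to 53.5 and 76.3 CPM, and Saa3 from 2.23 and 1.98 to 127 and 389 CPM. Muc1, Thrsp, Cidea and Slc34a2 were also higher, by 2.87 to 4.71 on the log2 scale. Fabp3 and Olah, at 0 and 0.248 CPM in adult cTEC, held 10.9 and 33.7 CPM and 1.74 and 3.82 CPM in adult mTEC. Xdh and Lpl, enzymes of milk fat globules and of triglyceride uptake, Trf and Aqp5 were lower in adult mTEC, by log2 differences between −2.33 and −1.72. Lalba, the alpha-lactalbumin gene needed for lactose synthesis, held 0.841 and 0.832 CPM in adult mTEC, and with Glycam1 and Btn1a1 was too low to be tested. Wap, Cel, Lao1, Spp1, Fabp3 and Olah, each with at most 1 UMI in an adult cTEC library, passed the filter through the mTEC libraries alone.

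Regulators of casein transcription in the mammary gland were called in both directions. Of 12 listed, all tested, 2 were higher and 4 lower in adult mTEC, beside 21.3% of all genes called higher and 32.7% in either direction, with a median log2 difference of −0.068. Stat5a rose from 19.2 and 3.96 to 79.2 and 90.9 CPM (edgeR, adjusted p = 1.17e-07), and Prlr, the prolactin receptor, from 4.91 and 0.495 to 10.3 and 10.5 CPM (edgeR, adjusted p = 0.00219). Stat5b did not pass the test (0.16 ± 0.45 SE on the log2 scale). Elf5, a factor of the secretory mammary lineage, held 2.52 and 3.1 CPM in adult mTEC and 1.79 and 0 CPM in adult cTEC (edgeR, adjusted p = 0.101). Nfib (−3.0), Pgr (−2.47), Nr3c1, the glucocorticoid receptor (−1.64), and Cebpb (−1.26) were lower in adult mTEC on the log2 scale. Cebpb differed more between the data sets than between the gates, with 17.9 and 153 CPM in adult cTEC and 6.49 and 65.0 CPM in adult mTEC.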

How the data were processed

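The authors sorted TEC, made droplet libraries (10x Genomics) and deposited UMI counts per gene and cell as matrices, with no normalisation. The submitters' processing notes name Cell Ranger 2.0.1, STAR 2.5.1b, bcl2fastq 2.17 and the mm10 build, while the file headers of data set 2 name another Cell Ranger release. The 2 data sets used gene lists of 27998 and 31053 genes, and 27514 genes common to both were analysed. The casein genes and all lists were chosen with earlier results of these data known. Kept cells had at most 5000 genes and at most 5% mitochondrial UMIs, and clusters of other cell types were not removed. No doublet caller was run. CPM are UMIs of a gene per 1000000 UMIs of the kept cells. For shares, cells were thinned to 3000 UMIs (seed 20240), and intervals are exact binomial or Poisson at 95%. Counts of 0 were given a floor of 3 UMIs per library. The adult libraries were compared with edgeR 4.0.16 (limma 3.58.1, R 4.3.3) on summed counts, with filterByExpr, TMM scaling, a term for the data set and Benjamini-Hochberg adjustment over all genes at 0.05, and with DESeq2 1.42.0 as an alternative. The fit was also run on simulated counts with no difference between data sets, and no result given here rests on that run. Clusters were made with scanpy 1.11.5 and leidenalg 0.10.2 on 2000 variable genes and 20 principal components at resolution 0.8, and named only where over 50% and at least 3 of the markers fixed for a type were at least 2-fold higher (pseudocount 10 CPM) and no other list had more of its markers among the 10 leading genes. Lists for cells outside the gates also had to have a marker among those genes, a condition added after the data were seen. Named genes were the 5 members, the genes most like them (8 for the sum, 3 for each member in at least 1% of cells), fixed state genes and, from the milk, regulator and neighbour lists, those called. Stat5b, Elf5, Lalba, Glycam1, Btn1a1, Ugt2a1, Ugt2a2 and 1700066N21Rik fall outside this rule and were named after their values were seen. Expected pairs assume independent detection within a library. Gene positions came from GENCODE M21 and RefSeq, and promoters from RefSeq. The labels speak of bone marrow suspensions while naming thymus as the tissue.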

Additional observations from a re-analysis of the deposited data

Results flagged for a closer look

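Cells left out by the limits on genes and mitochondrial UMIs also carried Csn2 in the adult mTEC libraries. Of the 34 and 338 cells with over 5000 genes, 94.1% in replicate 1 and 97.3% in replicate 2 had a Csn2 UMI. Of the 198 and 1071 cells with over 5% mitochondrial UMIs, 48.0% in replicate 1 and 32.1% in replicate 2 had one. These cells were singled out because the main comparisons leave them out, though they enter the alternative with all deposited cells, and their shares exceed those of the cells left out of the adult cTEC libraries, 0 of 4 and 1 of 45 of which had a casein UMI. Median depth was 31591.5 and 31324.5 UMIs in the first kind of cell and 4779 and 1124 UMIs in the second, and the part of depth in these shares was not tested. The casein level was 826 and 478 CPM in the first kind and 857 and 522 CPM in the second, against 959 and 960 CPM in kept cells.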

How the results depend on the processing

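Of 50 alternative fits of single caseins, 46 kept direction and call and 4 lost the call, namely DESeq2's test for Csn1s2a and 3 left-out libraries for Csn1s2b. The number of genes called between adult cTEC and adult mTEC, 5110 with edgeR, was 2591 with DESeq2 (of which 4 caseins) and between 2051 and 2922 when 1 library was left out. That fit has no term for the data set, and the lone library of a group is assumed to vary like the other group. With RLE scaling, no filter, no data set term, all deposited cells or without cells rich in thymocyte UMIs it stayed between 4257 and 5173. The mean share of adult mTEC with a casein UMI, 50.8%, became 68.6% with no thinning and 28.2% at 10 or more UMIs with no thinning, and lay between 35.3% and 59.5% under the other alternatives. Either library alone gave 39.8% and 61.8%. The mean co-detection ratio, 2.07, was 3.33 in cells without an Aire UMI, and 1.48 or 2.67 with 1 library. Without Csn2 it was 6.1, and became 15.8 in cells without an Aire UMI, where replicate 1 rests on 3 pairings (28.3), and 10.6 at 5 or more UMIs, against 3.04 or 9.17 with 1 library. The ratio by Aire, 2.54, was 9.64 at 10 or more casein UMIs and no thinning, and 1.41 or 3.66 with 1 library. The causes of these shifts were not tested. The definitions by 5 or 10 UMIs were chosen after seeing the data. The minor caseins rest on 22 to 51 positive cells each in replicate 1. The labels give no replicate numbers that would pair libraries. The data set, which holds 1 adult library of each gate, was a term of the main fit, and without it 4257 genes were called.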
